A study of Mus musculus with 16 samples.

Results

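Cartilage and bone genes were followed in mouse embryo heads at 3 stages, as a list of 34 genes taken by symbol from the platform annotation. The list holds 19 genes of cartilage matrix and chondrocyte products, 7 chondrocyte regulators and 8 bone genes. Of these, 31 were measured, among 18193 genes in all: each cartilage matrix gene, each regulator and 5 of the 8 bone genes. Runx2, Bglap and Spp1 were not analysed here, because no probe set naming 1 of them alone is in the table used. All 31 were tested with no filter on low values.

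Total RNA came from heads of embryonic day 9.5 (E9.5, 6 arrays), 11.5 (E11.5, 4) and 13.5 (E13.5, 6), in a study of the developing brain that asked which transcripts differ between these stages. The labels give no strain, genotype, treatment or sex, no number of embryos per array, and no account of how the heads were trimmed. The submitters' design text calls the arrays of a stage biological replicates. RNA of E9.5 and E11.5 was labelled with one in vitro transcription kit and RNA of E13.5 with an amplification kit of another maker. Stage and labelling kit cannot be told apart in any comparison with E13.5. Titles of E13.5 samples begin with B62 (3 arrays) or B63 (3 arrays), and the labels do not say what these prefixes stand for.

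Bones of the skull base form through cartilage, and Meckel's cartilage is the first scaffold of the lower jaw, whereas the flat bones of the skull form directly from mesenchyme. Chondrocytes differentiate under the transcription factors Sox9, Sox5 and Sox6, which drive genes for type II collagen and aggrecan. They surround themselves with fibrils of collagens II, IX and XI and with aggrecan bound to hyaluronan. Later the cells enlarge and make type X collagen, under feedback between Indian hedgehog (Ihh) and the parathyroid hormone receptor Pth1r, and osteoblasts under Runx2 and Sp7 lay down mineralised matrix.

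Levels are log2 of the deposited RMA intensities, with 1 probe set per gene. They show abundance relative to the other transcripts of an array, and levels of different genes cannot be ranked against each other. A lower share of the cells that express a gene and less transcript per cell cannot be told apart in such bulk RNA. For E9.5 and E13.5 the lowest, median and highest of the 6 arrays are given, and for E11.5 the values of samples 33, 36, 51 and 52 in that order. Differences carry their standard error (SE) and a Benjamini-Hochberg adjusted p from limma, and a gene was called where that p was under 0.05. The median probe set was at 5 and the lower quartile at 3.58 on the log2 scale, and values near or under that quartile lie among the dimmest of the array, where signal and background cannot be told apart here.

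The arrays of a stage resembled each other, with correlations across genes of 0.988 to 0.998 within stages. Array means over 27 probe sets of added poly-A control transcripts ranged from 7.34 to 7.90 at E9.5, 5.21 to 5.50 at E11.5 and 4.98 to 5.22 at E13.5. They did not overlap between E9.5 and E11.5, although one kit labelled both, and the part of handling in the differences between these stages was not tested. All 7 neural progenitor markers (Sox1, Sox2, Nes, Pax6, Hes5, Fabp7 and Msi1) had stage means above the lower quartile at each stage. The 6 measured markers of head mesenchyme, among them Prrx1 and Alx1, did so too.

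The cartilage matrix genes set E13.5 apart from the earlier stages. In E13.5 versus E11.5, 17 of 19 were called higher and none lower, 14 of them by at least 2-fold, with a median difference of 1.81. Over all genes 27.9% were called higher, 27% lower and 5.78% higher by at least 2-fold, and the median difference was 0.00. On 15 of the 19 genes every E13.5 array lay above every E11.5 array, against 22.3% of all genes. In E13.5 versus E9.5, 16 were called higher and 1 lower, with a median of 2.11, against 32.7% and 29.1% of all genes. The rise was at least 2-fold for 13 of them, against 9.93%, and 15 did not overlap, against 23.9%. These comparisons share their E13.5 arrays and are not independent. Skeletal muscle markers (7 of 8) and fibroblast markers (5 of 6) were also called higher in E13.5 versus E11.5, and their part in the rise was not tested.

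**Figure D1:**
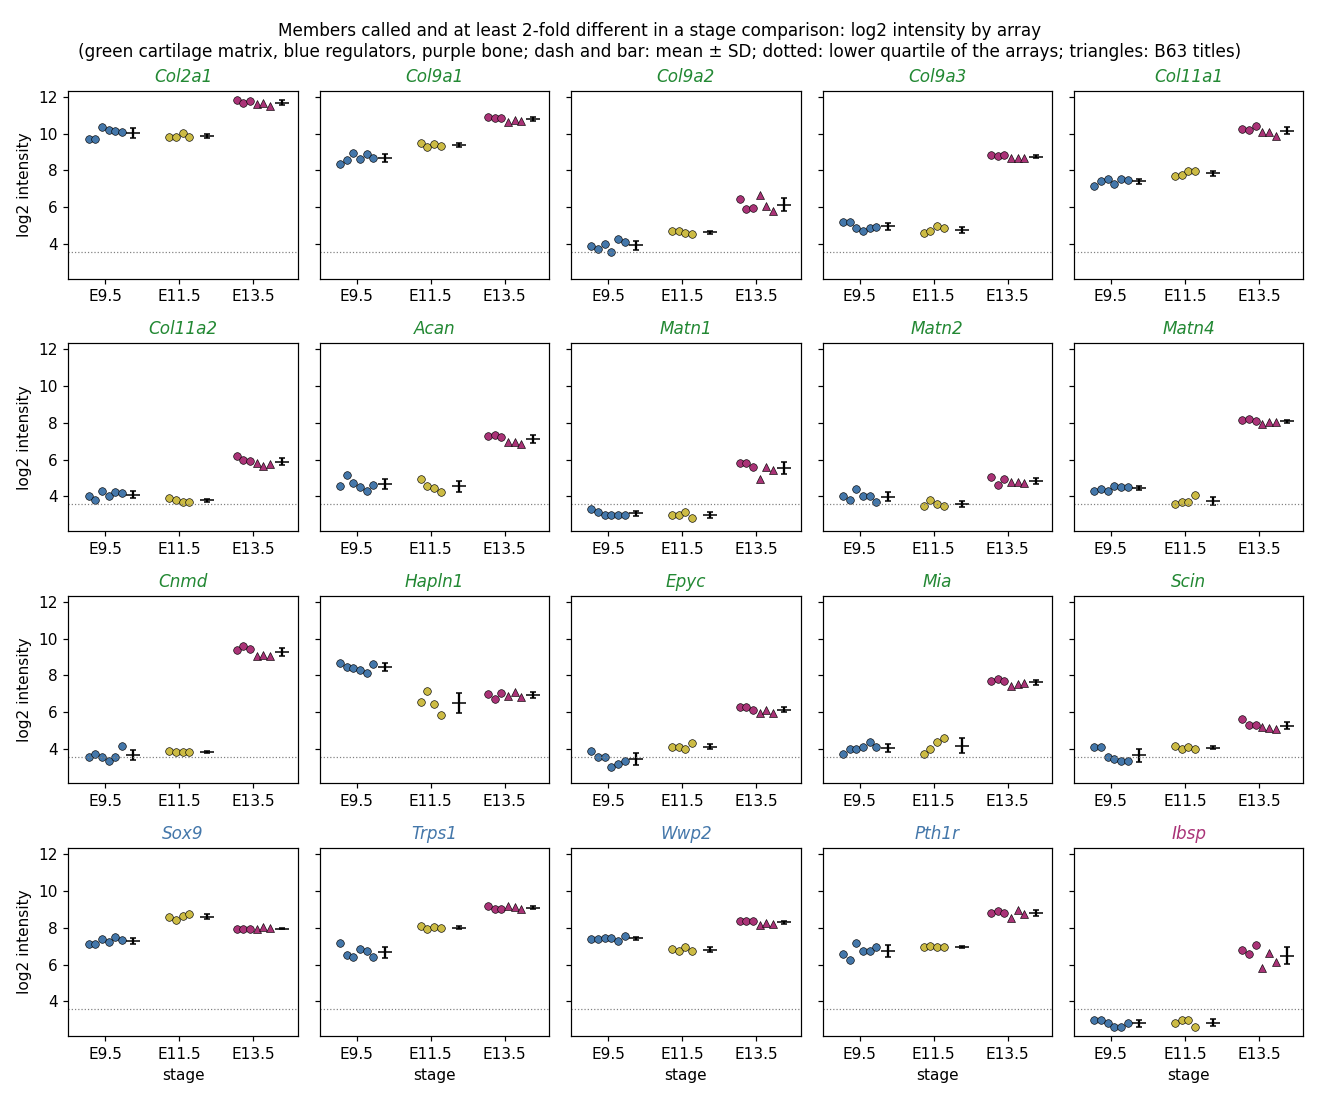
Log2 intensity of the 20 members that were called with at least a 2-fold difference in some stage comparison (vertical axis, same range in each panel) by stage (horizontal axis). Points are arrays, triangles are E13.5 arrays with B63 titles, dashes with bars are mean ± SD, and the dotted line is the lower quartile at 3.58. E13.5 arrays lie above the earlier ones for most panels, and Hapln1 and Sox9 follow other courses.

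Type II collagen, the main fibril collagen of cartilage, was well above the median probe set at the youngest stage. Col2a1 lay at 9.70, 10.12 and 10.37 at E9.5, at 9.80, 9.81, 10.04 and 9.81 at E11.5, and at 11.51, 11.66 and 11.85 at E13.5. E9.5 and E11.5 overlapped and every E13.5 array was higher. The E13.5 minus E11.5 difference of Col2a1 was 1.81 ± 0.12 (SE; adjusted p = 9.0e-11), a 3.52-fold difference, while -0.17 ± 0.12 (adjusted p = 0.234) was not called. It was called lower at E11.5 without E9.5 samples 13 and 15 together, at -0.33 (adjusted p = 0.00485).

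The type IX collagens, which sit on the surface of type II fibrils, followed 2 courses. Col9a1 lay at 8.34, 8.66 and 8.93 at E9.5, at 9.47, 9.29, 9.43 and 9.31 at E11.5, and at 10.64, 10.80 and 10.93 at E13.5. The stages were apart from each other, with 0.69 ± 0.10 (adjusted p = 7.1e-06) and then 1.41 ± 0.10 (adjusted p = 4.2e-10). With its second-brightest probe set the later step was 0.62 (adjusted p = 6.2e-04). Col9a2 lay at 3.58, 3.95 and 4.25 at E9.5, at 4.70, 4.70, 4.58 and 4.52 at E11.5, and at 5.81, 6.01 and 6.67 at E13.5. Here too each stage lay above the one before, by 0.71 ± 0.15 (adjusted p = 4.2e-04) and 1.51 ± 0.15 (adjusted p = 3.9e-08). Col9a3 lay at 4.70, 4.88 and 5.21 at E9.5, at 4.58, 4.70, 4.95 and 4.86 at E11.5, and at 8.65, 8.74 and 8.85 at E13.5. Col9a3 was flat across the earlier stages (-0.18 ± 0.10, adjusted p = 0.146, not called) and then rose 15.7-fold, by 3.97 ± 0.10 (adjusted p = 1.2e-16). The mean over its 3 probe sets gave 2.46 (adjusted p = 6.2e-15). The second-brightest rose by 3.27, and the dimmest had stage means of 2.62, 2.64 and 2.77, under the lower quartile.

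Type XI collagen forms the core of the thin fibrils. Col11a1 lay at 7.15, 7.45 and 7.55 at E9.5, at 7.70, 7.74, 7.95 and 7.96 at E11.5, and at 9.89, 10.15 and 10.41 at E13.5. Col11a1 rose in both steps with no overlap of arrays, by 0.44 ± 0.10 (adjusted p = 0.0011) and 2.32 ± 0.10 (adjusted p = 3.2e-13), and its second-brightest probe set gave 1.49 for the later one (adjusted p = 2.0e-10). Col11a2 lay at 3.81, 4.08 and 4.32 at E9.5, at 3.91, 3.81, 3.70 and 3.70 at E11.5, and at 5.64, 5.86 and 6.19 at E13.5. Its E11.5 arrays overlapped those of E9.5 but were called lower (-0.31 ± 0.11, adjusted p = 0.0183), a call that was lost without E11.5 sample 51 or 52 (-0.29 in both cases, adjusted p = 0.0504 and 0.051). The later rise of 2.11 ± 0.11 (adjusted p = 2.9e-12) had no overlap. Col10a1, the marker of enlarged chondrocytes, ran from 3.46 to 4.17 over all 16 arrays and was called in no stage comparison. It was called higher at E11.5 than at E9.5 without E9.5 sample 16 or 19 (0.35 and 0.31, adjusted p = 0.0111 and 0.0413), and higher at E13.5 than at E9.5 without either of these, E11.5 sample 33 or E13.5 sample B63E7K (0.25 to 0.34, adjusted p 0.0059 to 0.0487). The 95% interval of its E13.5 minus E11.5 difference was -0.27 to 0.25.

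Aggrecan, the large proteoglycan that holds water in cartilage, was dim at the earlier stages. Acan lay at 4.32, 4.61 and 5.17 at E9.5, at 4.95, 4.58, 4.46 and 4.25 at E11.5, and at 6.83, 7.11 and 7.34 at E13.5. E9.5 and E11.5 overlapped, and -0.10 ± 0.15 (adjusted p = 0.573) was not called. At E13.5 every array was higher, with 2.55 ± 0.15 (adjusted p = 2.2e-11), a 5.84-fold difference. Hapln1 encodes the link protein that ties aggrecan to hyaluronan and was highest at the youngest stage. Hapln1 lay at 8.15, 8.43 and 8.70 at E9.5, at 6.55, 7.15, 6.43 and 5.86 at E11.5, and at 6.69, 6.95 and 7.11 at E13.5. All 6 E9.5 arrays were above all later ones. The E11.5 minus E9.5 difference of Hapln1 was -1.94 ± 0.17 (SE; adjusted p = 5.5e-09), 3.84-fold lower at E11.5, the only cartilage matrix gene called lower by at least 2-fold in that step (4.79% of all genes). The partial return of 0.43 ± 0.17 (adjusted p = 0.0374) had overlapping arrays. It was lost without E11.5 sample 33, 51 or 52 or E13.5 sample B62E6K, B62E8K or B63E6K, with 0.21 (adjusted p = 0.232) without sample 52 and adjusted p of 0.0543 to 0.0797 without the others. It was lost too with the B62 and B63 title prefixes as a random block (adjusted p = 0.124), with the B62 or the B63 arrays alone (adjusted p = 0.136 and 0.104), and with only the stages compared in the fit (adjusted p = 0.0691). The other 3 Hapln1 probe sets fell by 1.42, 1.97 and 1.94 in the first step and rose by 0.94, 0.74 and 0.35 in the second. The E13.5 minus E9.5 difference of Hapln1 was -1.52 ± 0.15 (adjusted p = 1.8e-08), and its second-brightest probe set gave -0.48 (adjusted p = 0.0195).

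**Figure D2:**
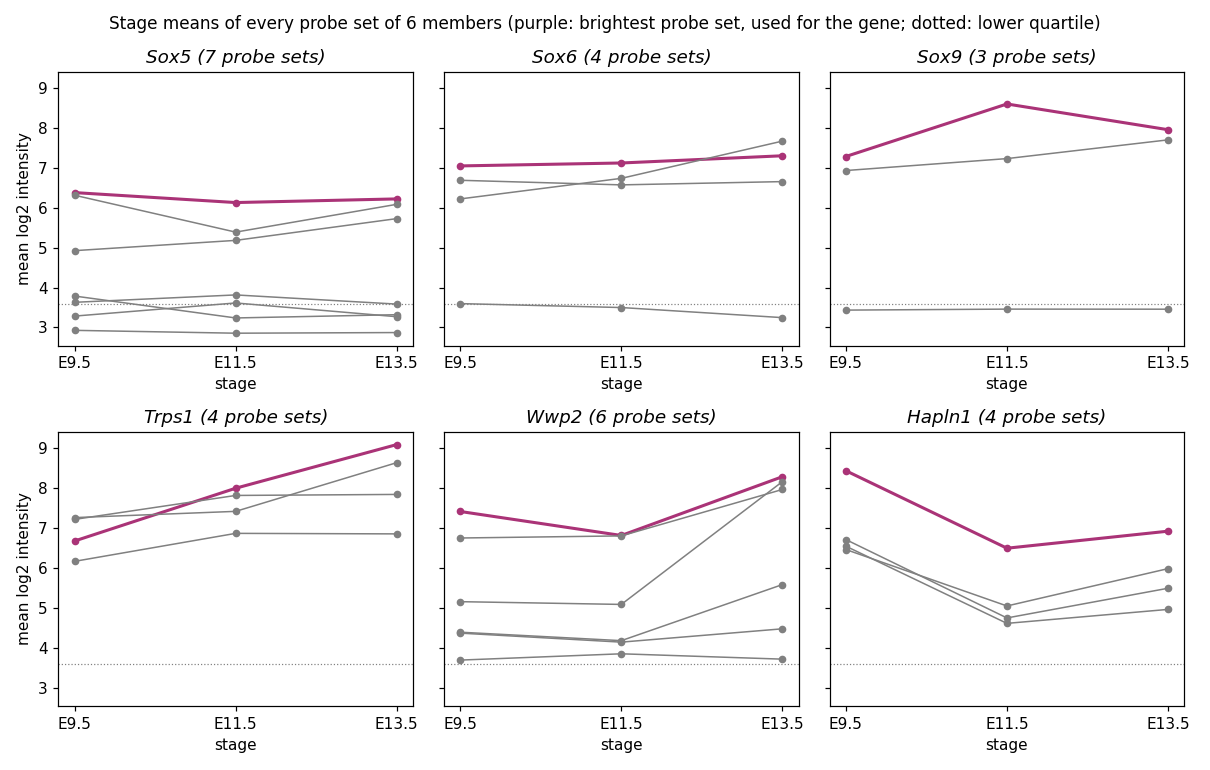
Mean log2 intensity per stage (vertical axis) of every probe set of 6 members, with the brightest one, which stands for the gene, in purple, the others in grey and the lower quartile dotted. The 4 Hapln1 probe sets fell together from E9.5 to E11.5, whereas those of Sox9, Trps1 and Wwp2 differed in direction or size.

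The matrilins, adaptor proteins that link collagen fibrils to other matrix components, differed in their courses. Matn1 lay at 3.00, 3.00 and 3.32 at E9.5, at 3.00, 3.00, 3.17 and 2.81 at E11.5, and at 4.95, 5.61 and 5.81 at E13.5. All earlier arrays of Matn1 were at or under the lower quartile, so the rise of 2.54 ± 0.13 (adjusted p = 3.6e-12) starts from the dimmest values. Matn2 lay at 3.70, 4.00 and 4.39 at E9.5, at 3.46, 3.81, 3.58 and 3.46 at E11.5, and at 4.64, 4.81 and 5.04 at E13.5. Matn2 was called lower at E11.5 (-0.41 ± 0.12, adjusted p = 0.0051), with overlapping arrays, and higher at E13.5 (1.26 ± 0.12, adjusted p = 1.4e-08). Matn4 lay at 4.32, 4.46 and 4.58 at E9.5, at 3.58, 3.70, 3.70 and 4.09 at E11.5, and at 7.96, 8.09 and 8.22 at E13.5. Matn4 was also lowest at E11.5, with -0.68 ± 0.09 (adjusted p = 3.7e-06) to E11.5 and then a rise of 4.32 ± 0.09 (adjusted p = 1.1e-17). No array of one stage overlapped another there. Matn3 ranged from 5.17 to 5.95 on the earlier arrays and from 6.02 to 6.92 at E13.5, and rose by 0.71 ± 0.16 (adjusted p = 7.5e-04). Its second probe set gave 0.32 for that step, and for E13.5 versus E9.5 it gave 0.05 (adjusted p = 0.646) against 0.86. That probe set had stage means of 3.11, 2.85 and 3.16, all under the lower quartile.

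Among other chondrocyte products, Cnmd had the largest rise of all members. Cnmd lay at 3.32, 3.58 and 4.17 at E9.5, at 3.91, 3.81, 3.81 and 3.81 at E11.5, and at 9.04, 9.26 and 9.57 at E13.5. Cnmd encodes chondromodulin, a cartilage protein that keeps vessels out, and it went from the dim end of the array to well above the median, by 5.44 ± 0.13 (adjusted p = 6.3e-17). Its E11.5 minus E9.5 difference was not called (0.17) but was without E9.5 sample 24 (0.28, adjusted p = 0.0395). Mia lay at 3.70, 4.04 and 4.39 at E9.5, at 3.70, 4.00, 4.39 and 4.58 at E11.5, and at 7.41, 7.64 and 7.80 at E13.5. Mia, a small secreted protein made by chondrocytes, overlapped between the earlier stages and then rose 10.9-fold, by 3.45 ± 0.14 (adjusted p = 1.3e-13). Epyc lay at 3.00, 3.45 and 3.91 at E9.5, at 4.09, 4.09, 4.00 and 4.32 at E11.5, and at 5.95, 6.13 and 6.29 at E13.5. Epyc, a leucine-rich proteoglycan of growth cartilage, rose in both steps, by 0.70 ± 0.14 (adjusted p = 1.7e-04) and 2.0 ± 0.14 (adjusted p = 1.6e-10). At E9.5, 5 of its 6 arrays were at or under the lower quartile, so the first step starts from the dimmest values. Scin lay at 3.32, 3.52 and 4.09 at E9.5, at 4.17, 4.00, 4.09 and 4.00 at E11.5, and at 5.09, 5.23 and 5.61 at E13.5. Scin, an actin-severing protein, rose by 0.42 ± 0.15 (adjusted p = 0.0186) with overlapping arrays, a call lost without E11.5 sample 33 (0.39, adjusted p = 0.0518), and then by 1.20 ± 0.15 (adjusted p = 6.6e-07) without overlap. For Scin, 4 of the 6 E9.5 arrays were at or under the lower quartile.

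Comp, a matrix glycoprotein of the thrombospondin family, and Chad, a collagen-binding leucine-rich protein, moved little. Comp ranged from 4.09 to 5.21 on the earlier arrays and from 4.91 to 5.32 at E13.5, a difference of 0.45 ± 0.17 (adjusted p = 0.0326) against E11.5. That call was lost without E11.5 sample 36 or 51 or E13.5 sample B62E6K or B62E7K (0.28 to 0.41, adjusted p 0.0654 to 0.171). It was lost too with the title prefix as a random block (adjusted p = 0.105) and with the B63 arrays alone (0.34, adjusted p = 0.21), as was the call against E9.5 (adjusted p = 0.0753 and 0.167). Chad was called higher at E11.5 than at E9.5 and in no other comparison (0.43 ± 0.17, adjusted p = 0.0377), and without E11.5 sample 51, at 5 against 4.00 to 4.09 on the others, the difference was 0.19 (adjusted p = 0.25). The call was also lost without E9.5 sample 16, 19, 22 or 24 (0.38 to 0.43, adjusted p 0.0584 to 0.078). Its E13.5 minus E9.5 difference, 0.32 ± 0.15 (adjusted p = 0.0812), was called without E11.5 sample 51, E13.5 sample B63E6K or E9.5 sample 15 (0.32 to 0.40, adjusted p 0.0174 to 0.041).

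For genes near background before E13.5 the size of a fold depends on how the dim values are treated. After 16 was added to each intensity before the log2, the E13.5 minus E11.5 differences of Matn1, Col11a2, Matn2, Scin and Ibsp were 1.39, 1.34, 0.67, 0.74 and 2.2, and each was still called. Comp and Hapln1 lost their call in that comparison (0.28 and 0.36, adjusted p = 0.0506 and 0.0555), as did Col11a2, Chad and Scin in E11.5 versus E9.5 (-0.15, 0.23 and 0.19, adjusted p = 0.0748, 0.064 and 0.0576).

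**Figure D3:**
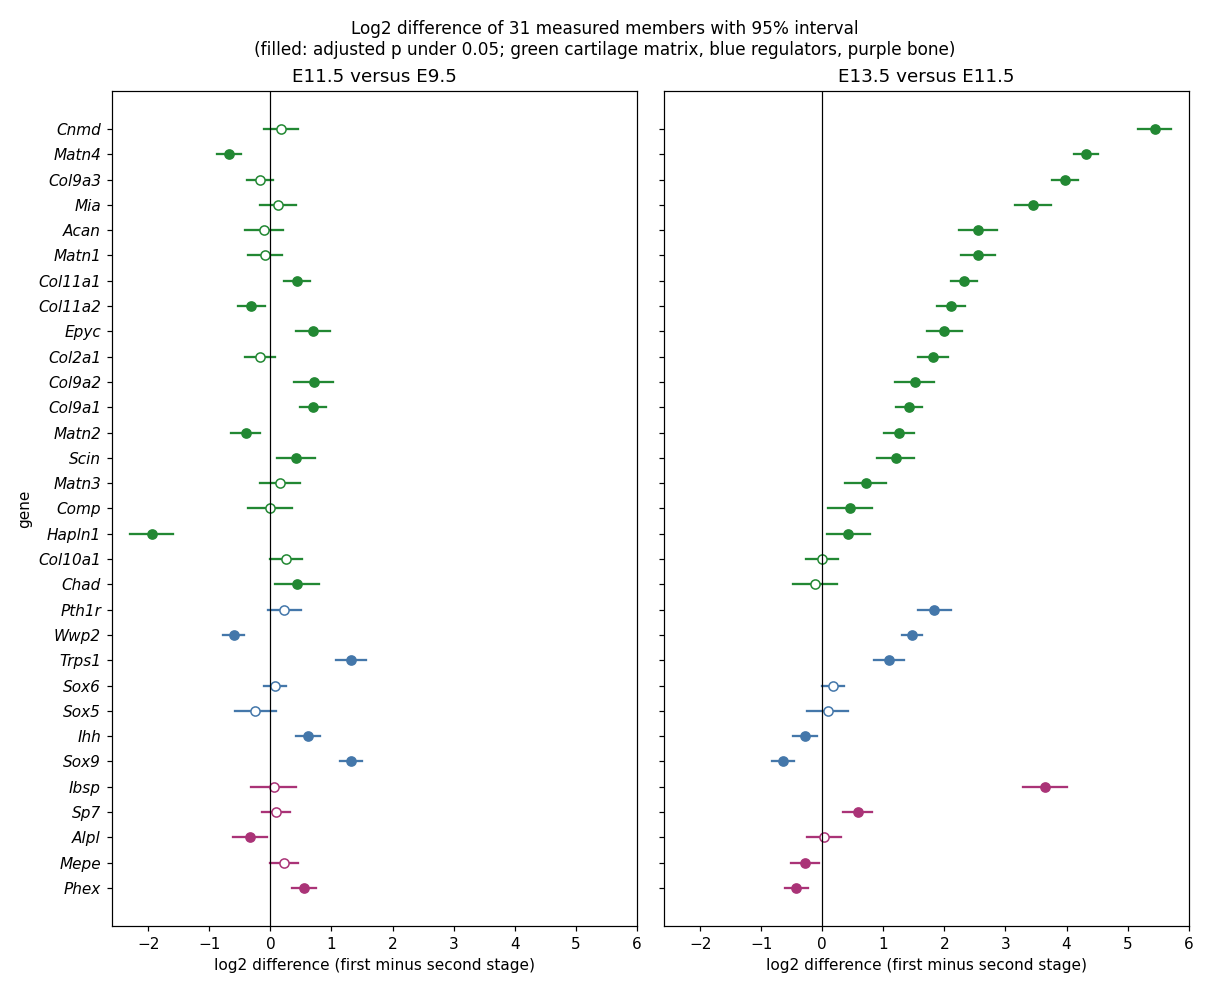
Log2 difference (horizontal axis) with its 95% interval for the 31 measured members, for E11.5 minus E9.5 (left) and E13.5 minus E11.5 (right), ordered within each group by the right panel. Filled points passed an adjusted p of 0.05. Cartilage matrix genes (green) lie on both sides of 0 on the left, and 17 of 19 are called above 0 on the right.

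The earlier step gave no common direction. In E11.5 versus E9.5, 6 of 19 cartilage matrix genes were called higher (Col9a1, Col9a2, Col11a1, Chad, Epyc and Scin), 4 lower (Col11a2, Matn2, Matn4 and Hapln1) and 9 neither, with a median difference of 0.12. Over all genes 31% were called higher and 26.9% lower. The members' shares thus lay near those of all genes. The median of the 19 rests on single arrays, since it was -0.00032 without E11.5 sample 52. Across all 31 members, 5 were lower at E11.5 than at E9.5 and then higher at E13.5 than at E11.5 (Col11a2, Matn2, Matn4, Hapln1 and Wwp2), against 11% of all genes. Another 6 rose in both steps (7.73% of all genes), and 11 were called in the later step alone and rose there (9.11%). Both steps share the E11.5 arrays.

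The chondrocyte regulators differed among themselves. Of 7, 3 were called higher and 2 lower in E13.5 versus E11.5 (27.9% and 27% of all genes), and 3 higher and 1 lower in E11.5 versus E9.5 (31% and 26.9%), of which Sox9 and Trps1 by at least 2-fold (6.08%). In E13.5 versus E9.5, 6 were called higher, with 32.7% over all genes, and their median was 0.67.

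Sox9, the factor that starts chondrocyte differentiation and is also active in neural progenitors and neural crest, was highest at the middle stage. Sox9 lay at 7.11, 7.28 and 7.52 at E9.5, at 8.59, 8.41, 8.67 and 8.75 at E11.5, and at 7.93, 7.95 and 8.02 at E13.5. Its stages did not overlap. It rose by 1.32 ± 0.09 (adjusted p = 1.3e-10), 2.49-fold, and then fell, with -0.65 ± 0.09 (adjusted p = 2.9e-06). The second-brightest probe set turned the direction of that later step, with differences of 0.30 and 0.47 (adjusted p = 0.0175 and 5.6e-04), and the mean over all probe sets gave -0.06 (adjusted p = 0.435). Both probe sets placed E13.5 above E9.5, by 0.67 and 0.77. The dimmest of the 3 had stage means under the lower quartile. Of the 7 markers of neural progenitors, cells that also express Sox9, 5 were called higher and 1 lower in the earlier step, 1 higher and 6 lower in the later one, and 3 higher (Fabp7, Nes and Msi1) and 4 lower (Sox1, Sox2, Pax6 and Hes5) in E13.5 versus E9.5, with a median of -0.57. Over all genes the shares called higher were 31%, 27.9% and 32.7% in the same order, and called lower 26.9%, 27% and 29.1%. The summed level of these markers was 12.11 to 12.41, 13.04 to 13.16 and 12.69 to 12.79 by stage, and their part in the course of Sox9 was not tested.

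Sox5 and Sox6, partners of Sox9 that are also expressed in neurons and progenitors, showed no large change on their brightest probe sets. Sox5 ranged from 5.58 to 6.78 over all arrays and was called in no stage comparison, with a 95% interval of -0.25 to 0.43 for E13.5 minus E11.5. Without E11.5 sample 52 it was called lower at E11.5 (-0.41, adjusted p = 0.0368). Its second-brightest probe set of 7 fell by 0.92 and rose by 0.70 in the same steps. Sox6 ranged from 6.85 to 7.42, and was called higher in E13.5 versus E9.5 (0.25 ± 0.08, adjusted p = 0.0073). That call was lost with the title prefix as a random block (adjusted p = 0.054) and with the B62 arrays alone (0.24, adjusted p = 0.062), which would leave 5 of the 7 regulators called higher. Without E11.5 sample 51 it was also called higher than at E11.5 (0.23, adjusted p = 0.0431). Its second-brightest probe set gave 0.52 and 0.93 for the steps.

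Trps1, a zinc finger repressor needed for growth plate cartilage, rose in both steps. Trps1 lay at 6.39, 6.62 and 7.18 at E9.5, at 8.08, 7.91, 8.04 and 7.97 at E11.5, and at 9.01, 9.08 and 9.20 at E13.5. No stage overlapped another, and the steps were 1.32 ± 0.12 (adjusted p = 9.2e-09) and 1.09 ± 0.12 (adjusted p = 1.4e-07). The second-brightest probe set gave 0.16 (adjusted p = 0.369) for the first and 1.22 for the second. The remaining ones gave 0.60 and 0.70 for the first and 0.03 and -0.01 for the second. All 4 were higher at E13.5 than at E9.5.

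Wwp2, a ubiquitin ligase whose gene is a Sox9 target in cartilage, was lowest at E11.5. Wwp2 lay at 7.28, 7.43 and 7.55 at E9.5, at 6.83, 6.73, 6.98 and 6.73 at E11.5, and at 8.16, 8.31 and 8.39 at E13.5. All arrays were apart between stages, with -0.60 ± 0.08 (adjusted p = 2.1e-06) and then 1.47 ± 0.08 (adjusted p = 6.6e-12). The second-brightest probe set did not show the first step (0.05, adjusted p = 0.636) and rose by 1.16 in the later one. Another of its 6 probe sets, with stage means of 5.16, 5.09 and 8.17, rose by 3.08.

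In the hedgehog and parathyroid hormone loop, the parathyroid hormone receptor moved and the hedgehog ligand stayed dim. Pthlh, the gene of the parathyroid hormone-related ligand in this loop, was not measured. Pth1r lay at 6.25, 6.75 and 7.15 at E9.5, at 6.95, 7.02, 6.94 and 6.93 at E11.5, and at 8.54, 8.80 and 8.97 at E13.5. Pth1r overlapped between the earlier stages and was higher on every E13.5 array, by 1.83 ± 0.13 (adjusted p = 2.9e-10), a 3.56-fold difference. At E11.5 it was called higher than at E9.5 only without E9.5 sample 16 (0.31, adjusted p = 0.0343). Ihh ranged from 3.70 to 4.00 at E9.5, 4.25 to 4.58 at E11.5 and 4.09 to 4.46 at E13.5. It rose by 0.62 ± 0.09 (adjusted p = 8.6e-06) and was then called lower (-0.28 ± 0.09, adjusted p = 0.0139), with overlapping arrays. That later call was lost without E11.5 sample 36 (-0.24, adjusted p = 0.05), with the title prefix as a random block (adjusted p = 0.0868) and with the B62 arrays alone (-0.21, adjusted p = 0.168).

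Among the 5 measured bone genes, Ibsp alone changed at least 2-fold. In E13.5 versus E11.5, Ibsp and Sp7 were called higher, Mepe and Phex lower, and Alpl neither. With all genes at 27.9% and 27%, 2 of 5 in each direction gives no common course, and their median was 0.02.

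Ibsp encodes bone sialoprotein, a matrix protein of osteoblasts and mineralising cartilage. Ibsp lay at 2.58, 2.81 and 3.00 at E9.5, at 2.81, 3.00, 3.00 and 2.58 at E11.5, and at 5.83, 6.59 and 7.04 at E13.5. The 10 earlier arrays were all under the lower quartile, and the 6 E13.5 arrays had an SD of 0.44. The E13.5 minus E11.5 difference of Ibsp was 3.65 ± 0.17 (SE; adjusted p = 9.5e-13), a 12.5-fold difference whose lower end lies among the dimmest values. The second probe set rose by 1.16 (adjusted p = 1.7e-05).

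Sp7, the osteoblast factor osterix, ranged from 4.25 to 4.86 on the earlier arrays and from 4.95 to 5.36 at E13.5. It was 0.58 ± 0.11 (adjusted p = 1.6e-04) higher than at E11.5, with no overlap. Alpl, the alkaline phosphatase of mineralising cells, ranged from 5.52 to 6.60 and was called lower at E11.5 and E13.5 than at E9.5 (-0.33 ± 0.13, adjusted p = 0.0409 for E11.5, and -0.31 ± 0.12, adjusted p = 0.0325 for E13.5). The first call was lost without E11.5 sample 36 or 52 or E9.5 sample 13, 15, 16 or 22 (-0.17 to -0.33, adjusted p 0.0536 to 0.238). The second was lost without E9.5 sample 13 or 22 or E13.5 sample B62E7K, B62E8K or B63E7K (-0.25 to -0.30, adjusted p 0.0561 to 0.0807), with the title prefix as a random block (adjusted p = 0.124) and with the B62 or the B63 arrays alone (adjusted p = 0.11 and 0.135). Mepe and Phex, which act on mineral and phosphate, stayed dim, between 3.00 and 4.64. Mepe was -0.28 ± 0.11 (adjusted p = 0.0396) in E13.5 versus E11.5, a call lost without E11.5 sample 51 or 52 or E13.5 sample B62E6K, B62E8K or B63E5K (-0.19 to -0.26, adjusted p 0.0733 to 0.173), with the title prefix as a random block (adjusted p = 0.156) and with the B62 or the B63 arrays alone (adjusted p = 0.0723 and 0.18). It was called higher at E11.5 than at E9.5 without E11.5 sample 33 or 36 (0.31 and 0.29, adjusted p = 0.022 and 0.0448). Phex rose by 0.55 ± 0.09 (adjusted p = 3.3e-05) and then differed by -0.42 ± 0.09 (adjusted p = 5.7e-04), but its second probe set, dimmer still, gave -0.14 and 0.72.

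The promoters of the genes with the largest E13.5 rise in the cartilage matrix and bone lists, Cnmd and Ibsp, are shown. The sequences are the 250 bases before each start site in RefSeq, build GRCm38.p6, read 5′ to 3′ on the gene's strand. Cnmd lies on the minus strand (chr14:79662184-79662433) and Ibsp on the plus strand (chr5:104299037-104299286). Capitals mark matches to a SOX core (ACAAAG or ACAATG), a RUNX core (TGTGGT) or a TATA box (TATAAA), searched on both strands.
Cnmd: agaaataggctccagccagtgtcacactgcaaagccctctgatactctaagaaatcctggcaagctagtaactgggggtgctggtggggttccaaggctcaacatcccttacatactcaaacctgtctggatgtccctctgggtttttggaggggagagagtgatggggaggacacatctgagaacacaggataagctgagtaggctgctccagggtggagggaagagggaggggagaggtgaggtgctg
Ibsp: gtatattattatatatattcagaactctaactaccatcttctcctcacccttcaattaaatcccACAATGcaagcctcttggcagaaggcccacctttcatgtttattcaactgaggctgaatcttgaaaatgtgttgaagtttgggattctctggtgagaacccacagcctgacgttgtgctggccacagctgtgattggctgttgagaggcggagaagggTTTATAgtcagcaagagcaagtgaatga
Cnmd held none of these letters in this window. The windows of Matn4 and Mia, also searched but not printed, held none either. Ibsp held ACAATG with its first base at -186 and TTTATA, the TATA letters of the other strand, at -28, where -1 is the base before the start site. GC content was 54% for Cnmd and 43.6% for Ibsp, against a median of 52.4% over 32851 windows of the same length. A SOX core was present in 25.2% of all windows, a RUNX core in 14% and a TATA box in 12.4%. An entry existed for 24 of the 31 measured members. Counted by gene, 8 of the 24 held a SOX core, 4 a RUNX core and 8 a TATA box, against 28.2%, 15.9% and 14.3% of all genes. A match is a run of letters and shows no binding.

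A list of 122 other skeletal genes, of which 116 were measured, holds the other parts of these pathways. In E13.5 versus E11.5, 52 of 116 were called higher and 31 lower with a median of 0.16, beside 27.9% and 27% of all genes. In E11.5 versus E9.5, 53 were called higher and 23 lower with a median of 0.17, beside 31% and 26.9% of all genes. The share called lower was thus near that of all genes in the later step. Signal ligands (BMP, FGF, TGF-beta and CCN families) had 10 of 14 higher and 1 lower in the later step, with a median of 0.72. Their receptors and inhibitors had 3 of 16 higher and 7 lower, and skeletal transcription factors 6 of 25 higher, near the share of all genes, and 10 lower. Genes of glycosaminoglycan synthesis and matrix secretion had 9 of 19 higher and 5 lower. Other cartilage matrix and turnover genes had 14 of 23 higher and 4 lower (median 0.76), and other bone and osteoclast genes 10 of 19 higher and 4 lower (median 0.43). In the earlier step the higher and lower counts of these groups, in the same order, were 4 and 5, 8 and 3, 12 and 2, 6 and 7, 13 and 4, and 10 and 2.

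From E11.5 to E13.5 the largest rises in that list were those of Dcn (decorin, 5.11 ± 0.15, adjusted p = 5.1e-16), Tnc (tenascin C, 3.50 ± 0.11, adjusted p = 2.4e-15) and Col6a3 (a type VI collagen chain, 3.37 ± 0.14, adjusted p = 1.3e-13). The largest falls were those of Acp5, the osteoclast acid phosphatase (-1.88 ± 0.15, adjusted p = 2.0e-09), Has2, a hyaluronan synthase (-1.30 ± 0.17, adjusted p = 1.6e-06), and Frzb, a secreted Wnt inhibitor (-1.30 ± 0.09, adjusted p = 2.8e-10). In the step from E9.5, Col1a1, the main collagen of bone and fibrous tissue, rose most (3.61 ± 0.15, adjusted p = 3.2e-13), followed by Shox2, a homeobox factor of limb and palate (2.86 ± 0.20, adjusted p = 2.3e-10), and Col6a3 (2.58 ± 0.14, adjusted p = 8.3e-12). Ccn2, a matrix growth factor (-1.48 ± 0.12, adjusted p = 3.3e-09), Fgf18, a skeletal growth factor (-1.30 ± 0.17, adjusted p = 1.4e-06), and Smo, the hedgehog signal transducer (-1.23 ± 0.10, adjusted p = 1.1e-09), fell most. Over both steps Ogn (osteoglycin, 5.78 ± 0.14, adjusted p = 7.5e-18) was among the largest rises beside Dcn and Col6a3, and Slc20a2, a phosphate carrier (-1.29 ± 0.09, adjusted p = 1.3e-10), among the falls beside Acp5 and Has2.

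Markers of other head tissues moved in the same comparison as the cartilage and bone genes, in which 27.9% of all genes were called higher and 27% lower. In E13.5 versus E11.5, 7 of 8 skeletal muscle markers were called higher, with a median of 4.91, and their summed level on the log2 scale was 7.26 to 7.46 at E11.5 and 12.20 to 12.69 at E13.5. Fibroblast markers had 5 of 6 higher, at 12.99 to 13.11 and 14.41 to 14.55. Of these markers, Col1a1, Col1a2, Dcn and Lum are also in the list of other skeletal genes, so the counts of both lists share values. Surface ectoderm markers had 6 of 6 higher, at 8.88 to 9.16 and 10.04 to 10.13. Lens markers had 3 of 4 higher, at 6.15 to 6.54 and 9.82 to 10.30. These lists thus stood above their E11.5 range on every E13.5 array.

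Tendon markers had 2 of 3 higher in that step, at 5.67 to 6.15 and 6.23 to 6.44, macrophage markers 3 of 6, at 8.41 to 8.72 and 8.92 to 9.34, and neuronal markers 4 of 6, at 12.42 to 12.57 and 13.15 to 13.27, with none lower in any of the lists. Head mesenchyme, from which much of the facial skeleton arises, had 2 of 6 higher and 2 lower, at 10.77 to 11.01 and 11.08 to 11.22. Neural progenitor markers had 6 of 7 lower and 1 higher, at 13.04 to 13.16 and 12.69 to 12.79. Endothelial markers had 2 of 5 higher and 1 lower, at 8.70 to 8.88 and 9.19 to 9.39. Pigment cell markers had 1 of 5 higher, at 7.86 to 8.11 and 8.04 to 8.40, and erythroid markers 3 of 4 lower, at 13.43 to 14.35 and 11.83 to 12.58. With 27.9% of all genes called higher and 27% lower, the mesenchyme, endothelial and pigment cell counts do not set these lists apart. The 2 measured notochord markers, of 4 listed, moved in opposite directions, at 6.60 to 7.15 and 5.95 to 6.21. At E13.5, 1 muscle, 1 pigment and 1 erythroid marker had a mean at or under the lower quartile. The part of these tissues in the rise of the cartilage and bone genes was not tested.

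In E11.5 versus E9.5, 31% of all genes were called higher and 26.9% lower. The neuronal (6 of 6), fibroblast (6 of 6), macrophage (5 of 6) and head mesenchyme (4 of 6) markers were called higher there. None of these markers was called lower, beside the mixed directions of the cartilage and bone genes. Neural progenitor markers had 5 of 7 higher and 1 lower. Both measured notochord markers were lower (Foxa2 by -0.81 and Foxj1 by -0.47). Surface ectoderm markers had none of 6 higher and 2 lower (Krt18 by -2.46 and Krt8 by -1.79). The listed notochord genes T and Noto were not measured, and Foxj1 was dim, with means of 4.27 at E9.5 and 3.80 at E11.5. Endothelial markers had 1 of 5 higher and 1 lower, erythroid markers 2 of 4 higher and 1 lower, lens markers 2 of 4 higher and 1 lower, pigment cell markers 3 of 5 higher and tendon markers 2 of 3 higher. Skeletal muscle markers had 3 of 8 higher and 1 lower in that step, at 7.09 to 7.53 and 7.26 to 7.46. The part of these tissues in the members' differences was not tested.

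Within E13.5 the arrays with B62 and B63 titles, 3 of each, differed in small steps. No gene of 18193 was called by limma (0%), and 1.14% had an unadjusted p under 0.05. Among the 31 members this was 7, all higher under B62: Col11a1, Col11a2, Acan, Matn1, Matn3, Cnmd and Ibsp. Skeletal muscle markers moved the same way, with 7 of 8 above 0, a median of 0.32 and 3 at an unadjusted p under 0.05 (Acta1, Myl1 and Myh3), and their summed level was 12.48 to 12.69 under B62 and 12.20 to 12.39 under B63. The erythroid marker Alas2 was lower under B62 at that threshold, the 7 neural progenitor markers were all below 0, and macrophage markers summed to 9.21 to 9.34 under B62 and 8.92 to 9.09 under B63. The part of these tissues in the members' shift was not tested. Of the cartilage matrix genes, 17 of 19 were above 0 with a median of 0.21, against 51.4% of all genes. For 11 of them, and for Wwp2, every B62 array was above every B63 array, which held for 4.92% of all genes, and for Sox9 every B62 array was below (3.79%). The largest value was that of Ibsp, with a mean of 6.79 under B62 and 6.20 under B63, a difference of 0.59 ± 0.18 (adjusted p = 1). Cnmd was at 9.47 and 9.08. These differences are small beside the 5.44 of Cnmd and 3.65 of Ibsp between E11.5 and E13.5, and the members share their arrays, so they are not independent of each other.

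**Figure D4:**
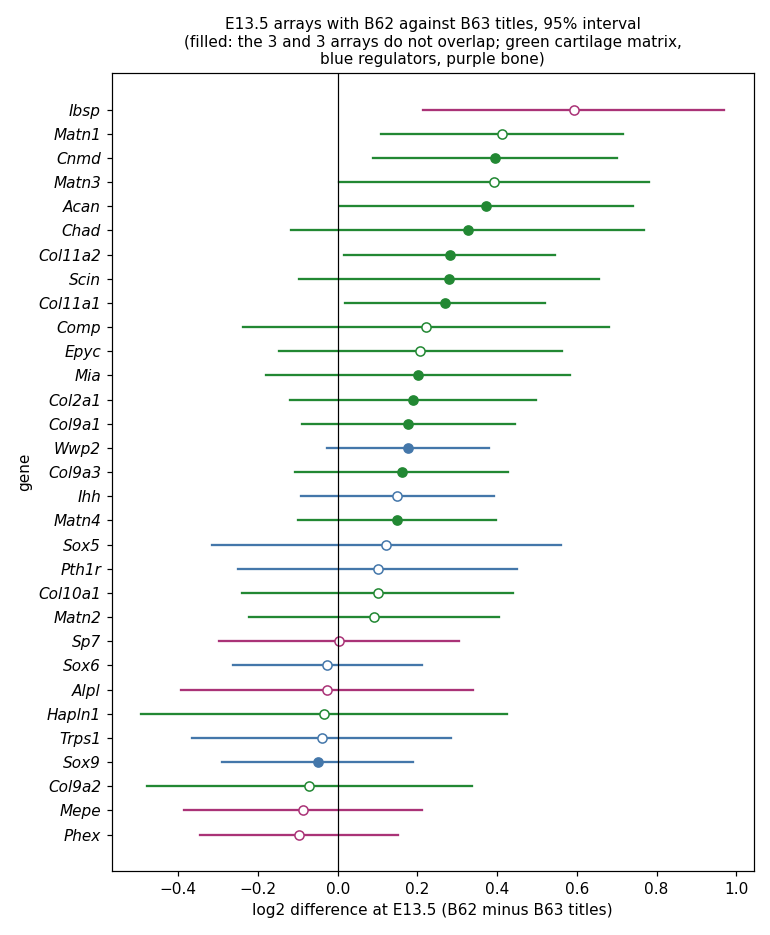
Log2 difference (horizontal axis) between the 3 E13.5 arrays with B62 titles and the 3 with B63 titles for each measured member, with its 95% interval. Filled points mark members whose arrays did not overlap, 12 above 0 and Sox9 below. Most cartilage matrix genes (green) lie above 0, by at most 0.41.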

How the data were processed

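The deposited values are probe set intensities on a linear scale, given as whole numbers; per the submitters' processing notes the authors used RMA. RMA corrects background, normalizes arrays to one another and summarises probes (version and settings not given in the sources used here). Each of 16 arrays held 45101 probe sets and had a median intensity of 32. No sample column was left unused (0), and 0 pairs of columns were identical. Precision is limited by the number of arrays.

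Values were transformed to log2. After 64 control probe sets were left out, 34945 probe sets named 1 gene, 932 named several and 9160 had no name there; each gene took its probe set with the highest mean over all arrays, giving 18193 genes. Symbols were checked against RefSeq through gene identifiers. The R package limma (3.58.1, R 4.3.3) fitted 1 linear model with a mean per stage to the 16 arrays, with moderated variances, and p-values were adjusted by Benjamini-Hochberg over all genes. The B62 and B63 arrays were compared in a further model of the 16 arrays, with a mean for E9.5, E11.5, B62 and B63. The procedure was tested on simulated data.

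Members with an adjusted p under 0.05 and a difference of at least 1 on the log2 scale in some stage comparison are described in full, the others by ranges; of the skeletal pathway list, the 3 largest called rises and falls per comparison are named. The members, lists and tests were chosen with earlier results of these data known. Alternatives covered quantile normalization, median centring, other probe set rules, a filter on the dimmest 25% of genes, an added intensity of 16, variance settings, array weights, the stages compared alone, the title prefix at E13.5 and leaving out each array. With the title prefix as a random block, the estimated correlation of E13.5 arrays sharing a prefix was 0.601, and what it reflects was not tested. Promoter sequences are from RefSeq, GRCm38.p6.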

Additional observations from a re-analysis of the deposited data

Results flagged for a closer look

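Within single stages, 5 of 93 groups of arrays, each a gene at a stage, held 1 array far from the others by Dixon's test at its 95% critical value, and chance flags about 1 group in 20. At E11.5, sample 51 was the highest array for Col2a1, at 10.04 against 9.80 to 9.81 on the other arrays, for Chad, at 5 against 4.00 to 4.09, and for Sp7, at 4.858 against 4.39 to 4.46. For Cnmd at E11.5, sample 33 was at 3.907 and the others all at 3.81, a difference of a single step of the whole-number intensities. For Col10a1 at E13.5, sample B63E7K was at 3.7 and the others at 3.91 to 4.00.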

How the results depend on the processing

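Of 68 called differences of members, 51 kept direction and call under each of 26 alternatives (E11.5 versus E9.5) or 29 (comparisons with E13.5). Of the 38 of at least 1 on the log2 scale, 37 did, and the exception was Trps1 in E11.5 versus E9.5, at 0.16 (adjusted p = 0.369) with the second-brightest probe set. Of 25 differences not called, 12 stayed so. Members called higher numbered 8 to 11, 20 to 26 and 22 to 25 over the alternatives in E11.5 versus E9.5, E13.5 versus E11.5 and E13.5 versus E9.5. Members called lower in E13.5 versus E11.5 numbered 4, but 2 under averaging of a gene's probe sets, the second-brightest probe set, the title prefix as a random block or the B62 arrays only. In E13.5 versus E9.5 they numbered 2, and 1 without E9.5 samples 13 and 15, with the random block, or with the B62 or the B63 arrays only; leaving out single arrays gave 1 to 2. With array weights, 1 of all genes was called higher and 1 lower between B62 and B63 arrays. With the second-brightest probe set the sign turned in E11.5 versus E9.5 for Matn3 (-0.26), Wwp2 (0.053), Phex (-0.14) and the median of the bone genes (-0.14), and in E13.5 versus E11.5 for Sox9 (0.47) and Phex (0.72). Averaging the probe sets turned Phex in the latter comparison too (0.15). The second probe sets of Matn3 and Phex had stage means under the lower quartile. The median of the cartilage matrix genes in E11.5 versus E9.5 was -0.00032 to 0.15 when single arrays were left out, with the lowest value without E11.5 sample 52. The cause was not tested for any of these. The filter on the dimmest genes left 27 of the 31 members. No paired analysis was possible because the stages share no replicate numbers. Signal near the lower quartile limits the folds of the dimmest genes.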
